A study of Homo sapiens with 10 samples.

Results

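The subject is 10 human genes of cystine import and glutathione metabolism, SLC7A11, GCLC, GCLM, GSS, GSR, GPX1, GPX4, MGST1, GSTP1 and ABCC1, in HEK293T cells that overexpressed the kinase BRSK2 or BRSK1. They were taken by gene name from the deposited count tables, where each name stood once among 58676 genes, and all 10 were among the 16936 genes that passed the filter on low counts. HEK293T is an established line derived from human embryonic kidney and transformed with viral genes. The groups named in the labels were 3 samples with BRSK2 and 3 with BRSK1, both AMPK-related serine/threonine kinases, 2 samples with hcRED, a red fluorescent protein, and 2 samples named Mock. The 3 proteins were overexpressed for 24 h, and the labels give no time or reagent for Mock, no construct or promoter, and no statement that cultures were separate. The spread behind each p-value may thus be technical. The series title names the kinases as negative regulators of NRF2, and the comparisons ask how these genes stood with each kinase against the controls, and between the kinases.

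Glutathione is the main small thiol of the cell, and its supply is limited by cysteine. Cystine, the oxidised form of cysteine, enters through a transporter made of the light chain SLC7A11 and the heavy chain SLC3A2, and is reduced inside the cell. Glutamate-cysteine ligase, made of the catalytic subunit GCLC and the modifier subunit GCLM, and then glutathione synthetase, GSS, build the tripeptide. GPX1 and GPX4 use it to reduce peroxides, GSR regenerates it from its oxidised form, MGST1 and GSTP1 join it to electrophiles, and ABCC1 exports glutathione and its conjugates. NRF2, paired with small MAF proteins, is known to switch on many of these genes at antioxidant response elements in their promoters.

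Promoter windows were read from a RefSeq table (GRCh38.p14) that runs from 250 bases before to 50 bases after an annotated start. Windows were matched for 6 of the 10 genes (10 windows), not for SLC7A11, GSS, GSR and ABCC1. The core of the antioxidant response element was searched as TGACNNNGC on both strands, where N is any base, and was found in 13.3% of all 35116 windows. It was found in 3 of the 10 windows, those of GCLM and GSTP1 and 1 of the 3 windows of MGST1, where it lay after the start, at +31 to +39. The windows of the partner subunits GCLM and GCLC are shown because GCLM moved and GCLC did not pass the test, and that of GSTP1 because it holds the element and lay just outside the threshold, with the letters of any match in capitals.
GCLM, chr1:93909381-93909680, minus strand: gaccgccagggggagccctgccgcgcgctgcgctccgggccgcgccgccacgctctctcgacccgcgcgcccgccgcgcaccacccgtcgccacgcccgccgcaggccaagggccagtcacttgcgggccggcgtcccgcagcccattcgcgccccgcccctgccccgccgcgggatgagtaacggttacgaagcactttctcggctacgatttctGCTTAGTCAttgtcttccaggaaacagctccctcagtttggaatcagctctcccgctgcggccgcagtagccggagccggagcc
GCLC, chr6:53545052-53545351, minus strand: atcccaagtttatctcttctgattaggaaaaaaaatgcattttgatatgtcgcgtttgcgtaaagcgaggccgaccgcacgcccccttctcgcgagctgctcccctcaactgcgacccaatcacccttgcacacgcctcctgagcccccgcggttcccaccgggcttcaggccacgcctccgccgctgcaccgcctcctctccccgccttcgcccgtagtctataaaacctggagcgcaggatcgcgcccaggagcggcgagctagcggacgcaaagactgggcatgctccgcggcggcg
GSTP1, chr11:67583562-67583861, plus strand: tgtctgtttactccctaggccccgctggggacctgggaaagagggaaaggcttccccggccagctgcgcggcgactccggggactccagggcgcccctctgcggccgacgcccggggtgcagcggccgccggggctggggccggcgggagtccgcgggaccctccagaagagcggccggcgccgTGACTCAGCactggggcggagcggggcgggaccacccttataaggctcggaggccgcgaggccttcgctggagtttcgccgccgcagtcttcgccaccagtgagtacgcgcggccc
In GCLM the match lay on the strand opposite to the gene, at -34 to -26 from the start, and reads TGACTAAGC on that strand. In GSTP1 it lay at -66 to -58 and overlapped a match at -66 to -60 to the AP-1 site, searched as TGANTCA (7.71% of all windows). No match to these or to the C/EBP-ATF response element, searched as TGATGNAA on both strands (3.62% of all windows), was in the GCLC window, and a match describes letters, not binding. Bases outside the windows were not searched, so the lack of a match does not show that GCLC has no such element. The windows were picked with the results known, and a part of the element in the changes was not tested.

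The libraries held between 16516116 and 24304302 counts. The BRSK2 gene took 6.99% to 10.4% of the counts in BRSK2 libraries and at most 0.00991% elsewhere, and the BRSK1 gene took 4.72% to 6.96% in BRSK1 libraries and at most 0.00288% elsewhere. All 9 markers of HEK293 cells (such as NEFM, CDH2 and VIM) stood above 1 CPM in every library, and their summed level was 563 to 586 CPM in BRSK2, 552.5 to 557 in BRSK1, 472 to 489 in hcRED and 540.1 to 553 in Mock libraries. VIM, an intermediate filament gene, rose with BRSK2 (log2 fold change 0.40 ± 0.06, adjusted p = 0.000464) and with BRSK1 (0.46 ± 0.06, adjusted p = 0.000241). NEFM, a neurofilament gene, stood above the mean of the controls with BRSK2 (0.23 ± 0.06, adjusted p = 0.0163 by edgeR's quasi-likelihood test). It was lower in hcRED than in Mock (-0.42 ± 0.08, adjusted p = 0.048 by the same test). Its mean was 182.5 CPM in BRSK2, 179.7 in Mock and 134.6 in hcRED libraries, and BRSK2 and Mock libraries overlapped. The part of VIM and NEFM in the results on the 10 genes was not tested. Of 11 markers of other cell types, 9 stood under 1 CPM in every library, PTPRC at 0 counts among them, while the collagen genes COL1A1 and COL3A1 were detected. The summed level of these 11 was 26.7 to 35.4 CPM in BRSK2, 25.1 to 34.3 in BRSK1, 31.3 to 31.8 in hcRED and 35.5 to 39.6 in Mock libraries.

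Levels are given as CPM, counts relative to the library total scaled with TMM factors, and between genes as CPM per kilobase of the gene length in the deposited tables. Per length, GPX1 (198 ± 17.6, SD over 10 libraries) and GSTP1 (190.2 ± 16.5) stood highest, with overlapping ranges. GPX4 followed at 104 ± 9.26, GSS at 37.4 ± 2.29 and GSR at 27.7 ± 1.15, each clear of its neighbours in all libraries. ABCC1 (11.3 ± 0.81) and GCLM (8.60 ± 1.01 CPM per kilobase) overlapped, as did GCLC (4.50 ± 0.46) and SLC7A11 (3.42 ± 0.75). MGST1 was lowest at 1.16 ± 0.15 CPM per kilobase. Genes of supply, use and conjugation were thus mixed in this order, with GSS above GSR and ABCC1, and MGST1 below SLC7A11, GCLC and GCLM. The order rests on the deposited lengths, such as 7.44 kb for MGST1 and 1.922 kb for GSS, and other lengths were not tried. SLC7A11 varied most, with a 1.87-fold span between its highest and lowest library, and GSR least, at 1.15-fold.

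**Figure D1:**
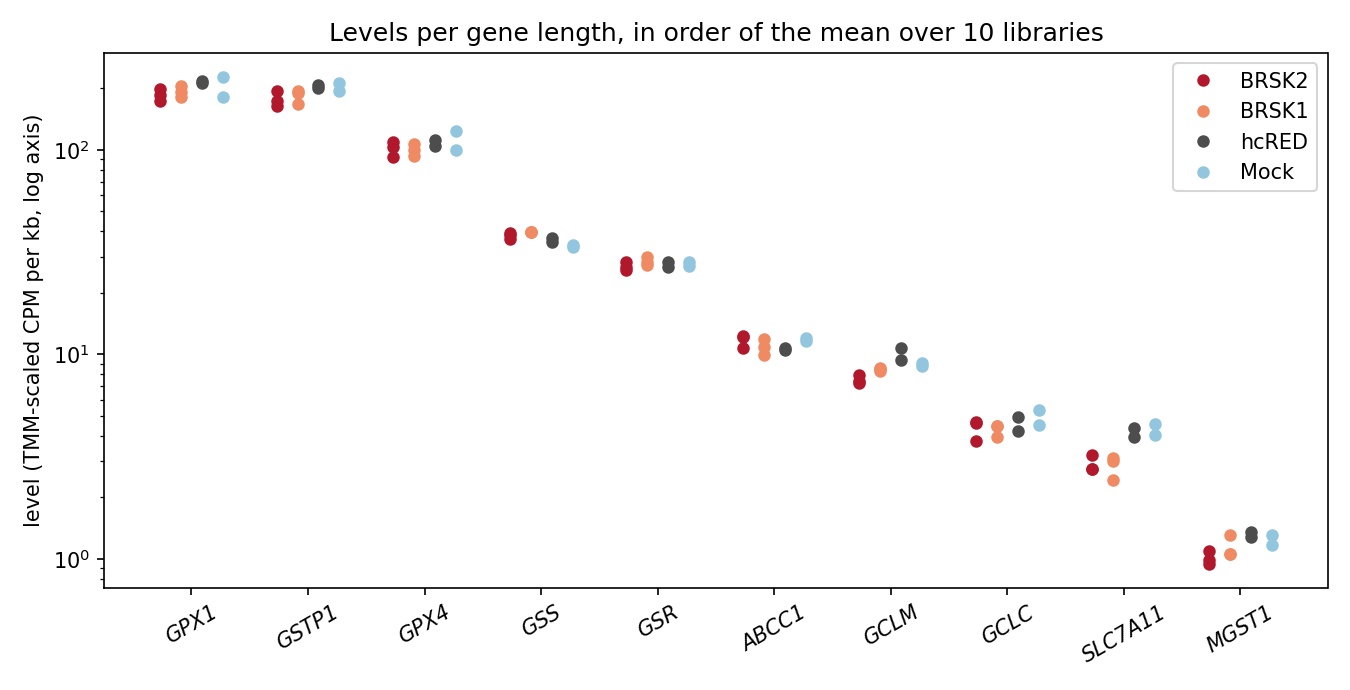
Level of each gene per gene length (TMM-scaled CPM per kilobase, log axis) in each of the 10 libraries, coloured by group, with genes in order of their mean. GPX1 and GSTP1 lie near 198 and 190.2, and MGST1 near 1.16.

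With BRSK2, 2 of the 10 genes fell, SLC7A11 and GCLM, and the other 8 did not reach an adjusted p under 0.05 (quasi-likelihood test in edgeR). Of all tested genes 3.05% passed in that direction, and 7.82% in either. The median log2 fold change of the 10 genes was -0.15, with 8 negative, against 0.00 over all tested genes, of which 49.5% were negative. With BRSK1, SLC7A11 fell and the other 9 did not pass, where 2.66% of all tested genes passed lower and 6.43% in either direction. The median of the 10 was -0.14 with BRSK1, again with 8 negative, against 0.00 over all tested genes. Both kinases were set against the mean of the same hcRED and Mock libraries, so the 2 sets of values are not independent. Without any composition factor (library totals alone) the median of all genes with BRSK2 shifted by -0.10 on the log2 scale, 494 genes were called higher and 2507 lower in place of 808 and 517, and 6 of the 10 genes passed lower.

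**Figure D2:**
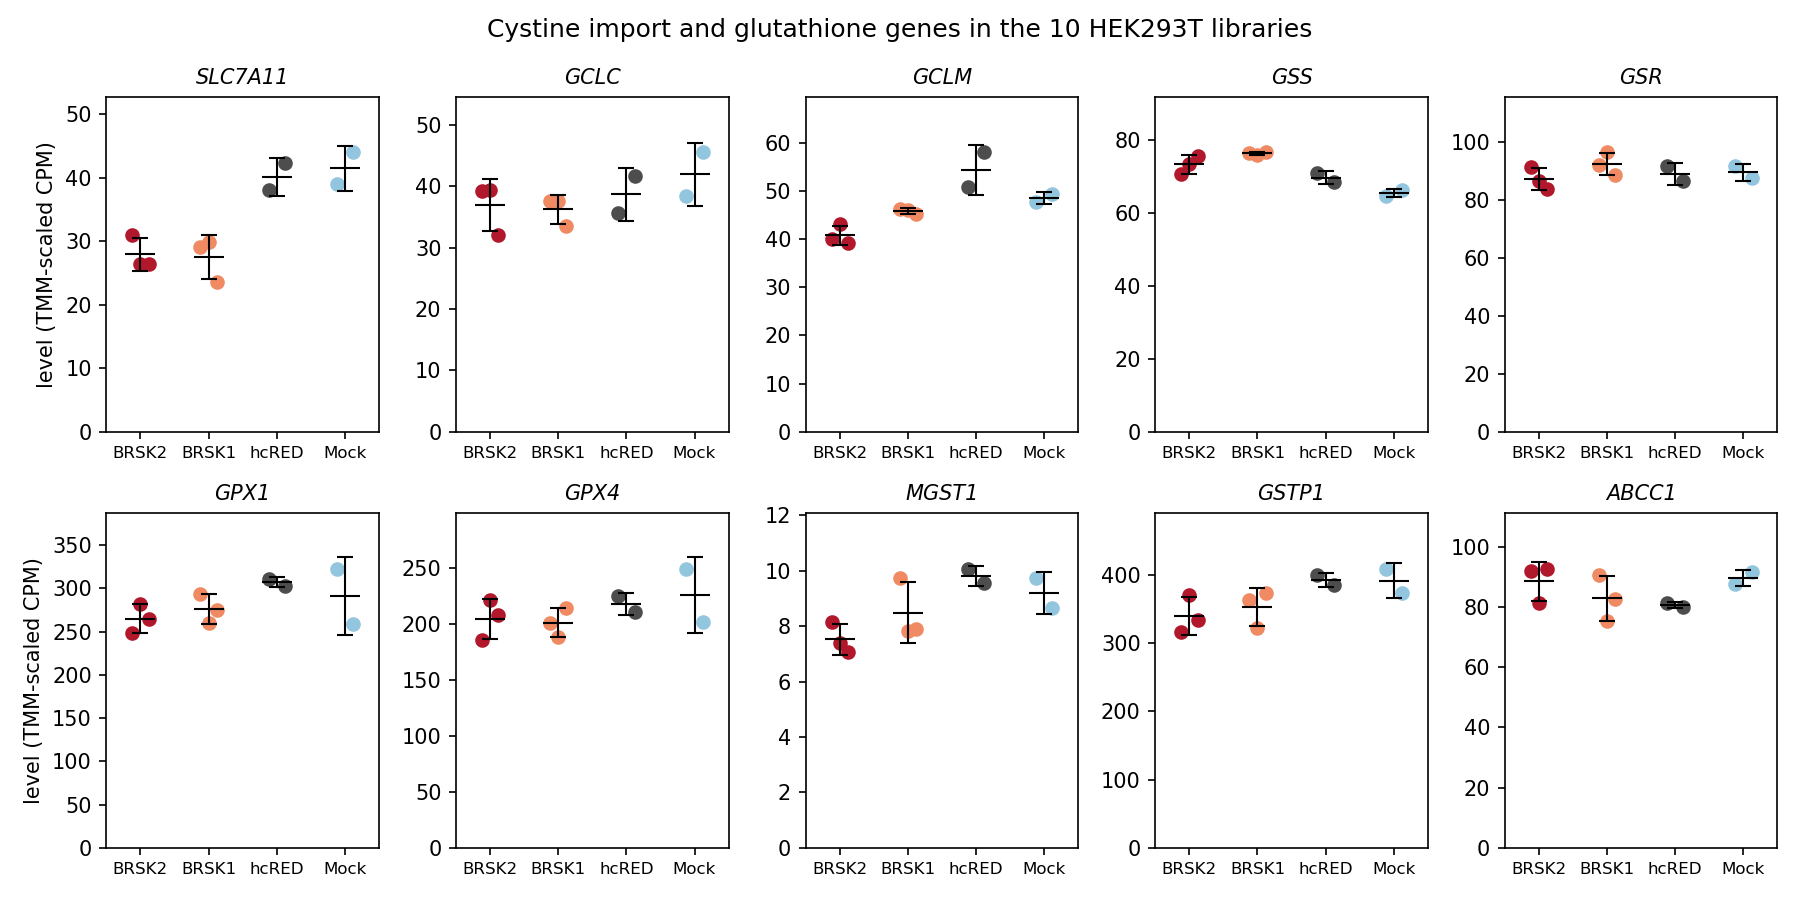
Level (TMM-scaled CPM, axis from 0) of each gene in every library (points), with the group mean and SD (bars; n = 3 for BRSK2 and BRSK1, n = 2 for hcRED and Mock). SLC7A11 lies between 23.5 and 30.9 CPM in the 6 kinase libraries and between 38.0 and 44.0 CPM in the 4 control libraries.

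SLC7A11, the light chain that carries cystine (ENSG00000151012; hg38 chromosome 4, minus strand, 138164097 to 138242349), had 30.9, 26.4 and 26.5 CPM in BRSK2 libraries 1, 2 and 3 and 29.1, 29.9 and 23.5 CPM in BRSK1 libraries 1, 2 and 3. It had 38.0 and 42.3 CPM in hcRED libraries 1 and 3 and 39.0 and 44.0 CPM in Mock libraries 2 and 3. Every kinase library was below every control library, a pattern that 8.2% of all tested genes showed for BRSK2 and 8.44% for BRSK1. SLC7A11 fell by 31.5% with BRSK2 (log2 fold change -0.55 ± 0.09 SE, 95% interval -0.74 to -0.36, adjusted p = 0.000679). With BRSK1 it fell by 32.6% (-0.57 ± 0.09, 95% interval -0.76 to -0.38, adjusted p = 0.000798). Of all tested genes 3.25% had a lower log2 fold change with BRSK2 and 2.92% with BRSK1. Against hcRED alone the values were -0.52 in BRSK2 libraries (adjusted p = 0.00728) and -0.55 in BRSK1 libraries (adjusted p = 0.0159), and against Mock alone -0.57 (adjusted p = 0.00323) and -0.59 (adjusted p = 0.00276). The call held in all 27 alternatives for each kinase, with log2 fold changes from -0.65 to -0.48 and adjusted p up to 0.0123 for BRSK2, and from -0.64 to -0.47 and up to 0.0179 for BRSK1. In the authors' deposited table SLC7A11 is listed at -0.54 in BRSK2 libraries (adjusted p = 0.00302) and -0.57 in BRSK1 libraries (adjusted p = 0.00336). RNA from bulk cultures does not tell fewer cells with the transcript from less transcript in each cell.

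The BRSK2 library with the smallest share of BRSK2 counts, replicate 1 (6.99%), had the highest SLC7A11 level of its group, and replicates 2 and 3 had shares of 9.08% and 10.4%. The BRSK1 library with the largest share of BRSK1 counts, replicate 3 (6.96%), had the lowest SLC7A11 level, while replicates 1 and 2 had 4.72% and 6.52% at nearly equal levels of 29.1 and 29.9 CPM. With 3 libraries in each group this relation was not tested.

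GCLM, the modifier subunit that raises the activity of the ligase (ENSG00000023909; chromosome 1, minus strand, 93885205 to 93909456), had 40.0, 43.0 and 39.3 CPM in BRSK2 libraries and 46.3, 46.1 and 45.1 CPM in BRSK1 libraries. It had 50.7 and 58.0 CPM in hcRED and 47.7 and 49.5 CPM in Mock libraries. The BRSK2, BRSK1 and control libraries did not overlap, in that order from low to high. All BRSK2 libraries lay below the controls for 8.2% of all tested genes, and all BRSK1 libraries for 8.44%. The share of genes with the whole order was not counted. GCLM fell by 20.6% with BRSK2 (-0.33 ± 0.07, 95% interval -0.48 to -0.19, adjusted p = 0.00507). Leaving out BRSK2 replicate 3 ended that call (adjusted p = 0.0532), as did Mock alone as the control (-0.25, adjusted p = 0.0774), with adjusted p from 0.000495 to 0.0774 over the 27 alternatives. With BRSK1 it stood at -0.16 ± 0.07 (95% interval -0.31 to -0.02, adjusted p = 0.162). The hcRED libraries were both above the Mock libraries, by 0.16 ± 0.09 on the log2 scale (adjusted p = 0.608). The authors' deposited table lists GCLM with BRSK2 at -0.32 (adjusted p = 0.0345), and not with BRSK1.

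GCLC, the catalytic subunit that carries out the same reaction (ENSG00000001084; chromosome 6, minus strand, 53497341 to 53616970), had 39.3, 39.4 and 32.1 CPM in BRSK2 libraries and 37.6, 37.6 and 33.5 CPM in BRSK1 libraries. It had 35.6 and 41.7 CPM in hcRED and 38.3 and 45.5 CPM in Mock libraries, so that kinase and control libraries overlapped. Its log2 fold change was -0.12 ± 0.09 with BRSK2 (95% interval -0.31 to 0.06) and -0.15 ± 0.09 with BRSK1 (95% interval -0.33 to 0.03), neither past the threshold (adjusted p = 0.441 and 0.319). The ratio of GCLM to GCLC per gene length was 1.59, 1.71 and 1.91 in BRSK2, 1.92, 1.92 and 2.10 in BRSK1, 2.23 and 2.17 in hcRED, and 1.94 and 1.70 in Mock libraries. The lowest and highest ratios were in BRSK2 and hcRED libraries, and the Mock libraries lay within the range of the kinase libraries.

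GSS, the synthetase that adds glycine in the last step (ENSG00000100983; chromosome 20, minus strand, 34928430 to 34955817), leaned the other way. It had 70.7, 73.5 and 75.7 CPM in BRSK2 libraries and 76.5, 75.9 and 76.6 CPM in BRSK1 libraries, against 70.9 and 68.4 CPM in hcRED and 64.8 and 66.3 CPM in Mock libraries. All 3 BRSK1 libraries stood above all 4 controls, as for 9.93% of tested genes, while 1 BRSK2 library lay below an hcRED library. The log2 fold change was 0.18 ± 0.06 with BRSK1 (95% interval 0.05 to 0.30, adjusted p = 0.0767) and 0.12 ± 0.06 with BRSK2 (95% interval -0.01 to 0.24, adjusted p = 0.245), and neither passed. With BRSK1 it passed in 4 of 27 alternatives, among them without BRSK2 replicate 1 (adjusted p = 0.0493) and with a correction for GC content (0.0414), with adjusted p from 0.0147 to 0.41 over all.

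The peroxidases GPX1 and GPX4 are selenoproteins, GPX4 being the one that reduces lipid peroxides in membranes. GPX1 (ENSG00000233276) lies on chromosome 3, minus strand, 49357176 to 49358600, and GPX4 (ENSG00000167468) on chromosome 19, plus strand, 1103926 to 1106791. GPX1 had 248, 282 and 264 CPM in BRSK2 libraries and 294, 259 and 275 CPM in BRSK1 libraries, against 311 and 303 CPM in hcRED and 323 and 259 CPM in Mock libraries. Mock replicate 3 lay among the kinase libraries and the other 3 controls above them. GPX1 stood at -0.17 ± 0.07 with BRSK2 (95% interval -0.32 to -0.03, adjusted p = 0.127), and without Mock replicate 3 at -0.25 (adjusted p = 0.0313). It also passed with the correction for GC content (-0.24, adjusted p = 0.0184) and under library totals alone (-0.28, adjusted p = 0.0106), and over the 27 alternatives its adjusted p lay between 0.000877 and 0.444. GPX4 had 186, 221 and 208 CPM in BRSK2 and 201, 189 and 215 CPM in BRSK1 libraries, against 225 and 211 CPM in hcRED and 249.8 and 202 CPM in Mock libraries, with overlap. It stood at -0.11 ± 0.07 in BRSK2 libraries (adjusted p = 0.379) and -0.14 ± 0.07 in BRSK1 libraries (adjusted p = 0.275), and GPX1 at -0.11 ± 0.07 with BRSK1 (adjusted p = 0.347). Scaled by library totals, GPX4 passed with BRSK2 (-0.22, adjusted p = 0.0422, with a range of 0.0161 to 0.827 over the alternatives). Processed pseudogenes of these peroxidases exist, so a split of their counts by the counter used is uncertain.

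Of the conjugating enzymes, GSTP1, the cytosolic pi-class transferase (ENSG00000084207; chromosome 11, plus strand, 67583595 to 67586660), had 315, 370.4 and 333 CPM in BRSK2 libraries and 362, 321 and 373 CPM in BRSK1 libraries. It had 399 and 385 CPM in hcRED and 409 and 373 CPM in Mock libraries. Every BRSK2 library was below every control, by a narrow margin and as for 8.2% of all tested genes, while BRSK1 replicate 3 overlapped Mock replicate 3. GSTP1 stood at -0.20 ± 0.07 with BRSK2 (95% interval -0.34 to -0.07, adjusted p = 0.058) and at -0.15 ± 0.07 with BRSK1 (adjusted p = 0.176). With BRSK2 it was just outside the threshold and passed in 8 of 27 alternatives (adjusted p from 0.00029 to 0.232). They include DESeq2 (0.0331), no filter on low counts (0.0197), library totals alone (0.00392), the correction for GC content (0.00569), and the fits without BRSK2 replicate 2 (0.0383) or BRSK1 replicate 2 (0.0482).

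MGST1, a membrane-bound transferase and peroxidase (ENSG00000008394; chromosome 12, plus strand, 16347142 to 16609259), rested on 111 to 214 counts in a library. It had 8.16, 7.38 and 7.06 CPM in BRSK2 libraries and 9.76, 7.84 and 7.89 CPM in BRSK1 libraries, against 10.1 and 9.55 CPM in hcRED and 9.74 and 8.66 CPM in Mock libraries. The BRSK2 libraries were all below the controls, as for 8.2% of all tested genes. The log2 fold change with BRSK2, -0.33 ± 0.13 (95% interval -0.61 to -0.06), was as large as that of GCLM but did not pass (adjusted p = 0.123), and only with library totals as the scaling did it pass (-0.44, adjusted p = 0.0255, with a range up to 0.351). With BRSK1 MGST1 stood at -0.16 ± 0.13 (adjusted p = 0.484).

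GSR, the NADPH-dependent reductase of oxidised glutathione, and ABCC1, the exporter, had overlapping libraries. GSR (ENSG00000104687) lies on chromosome 8, minus strand, 30678061 to 30727926, and ABCC1 (ENSG00000103222) on chromosome 16, plus strand, 15949577 to 16143074. GSR stood at 87.2 ± 3.87 CPM in BRSK2 and 92.5 ± 3.86 in BRSK1 (SD, n = 3 each), 89.2 ± 3.76 in hcRED and 89.7 ± 2.96 in Mock libraries (SD, n = 2 each). Its log2 fold change was -0.04 ± 0.06 with BRSK2 (95% interval -0.16 to 0.09, adjusted p = 0.785) and 0.05 ± 0.06 with BRSK1 (95% interval -0.08 to 0.17, adjusted p = 0.689). ABCC1 stood at 88.6 ± 6.43 CPM in BRSK2, 82.9 ± 7.55 in BRSK1, 80.6 ± 1.03 in hcRED and 89.6 ± 2.63 in Mock libraries. Its log2 fold change was 0.06 ± 0.07 with BRSK2 (95% interval -0.08 to 0.20, adjusted p = 0.663) and -0.04 ± 0.07 with BRSK1 (95% interval -0.18 to 0.10, adjusted p = 0.809), with a change of sign in 2 alternatives for each kinase.

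**Figure D3:**
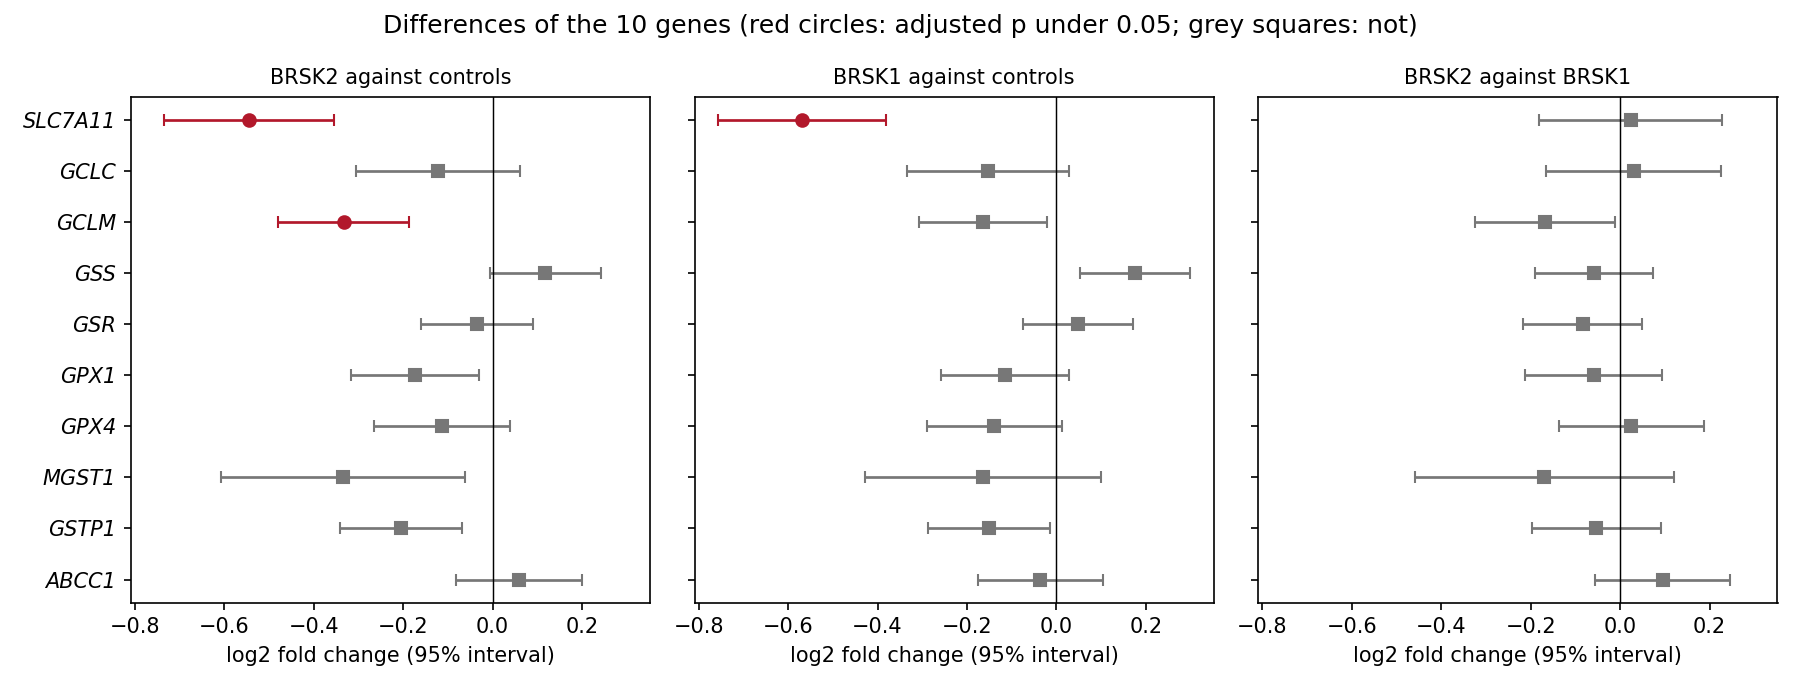
Log2 fold change of the 10 genes with its 95% interval for BRSK2 against the controls, BRSK1 against the controls and BRSK2 against BRSK1 (red circles passed at an adjusted p under 0.05, grey squares did not). SLC7A11 lies at -0.55 and -0.57 against the controls and at 0.02 between the kinases.

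Between the kinases, 0 of the 10 genes passed by DESeq2, where 190 of all genes passed, or by limma-voom, where 42 passed. By edgeR's quasi-likelihood test 0 of the 10 passed as well, where 0.348% of all tested genes passed, 0.23% higher and 0.118% lower. GCLM alone had an unadjusted p under 0.05, at -0.17 ± 0.08 for BRSK2 against BRSK1 (95% interval -0.32 to -0.01, adjusted p = 0.358), with all 3 BRSK2 libraries below all 3 BRSK1 libraries, as for 9.02% of tested genes. GSS libraries were apart in the same direction (-0.06 ± 0.06, 95% interval -0.19 to 0.07). For SLC7A11 the difference was 0.02 ± 0.10 with a 95% interval of -0.18 to 0.23, the range of differences that these libraries leave possible. The smallest difference that would have passed was not computed. The widest interval was that of MGST1, -0.46 to 0.12.

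Between hcRED and Mock, 0 of the 10 passed by DESeq2, where 52 of all genes passed, or by limma-voom, where 2 passed. By edgeR's test 0 of the 10 passed, where 0.0295% of all tested genes passed, and 0 of the 10 had an unadjusted p under 0.05. The values ran from -0.15 ± 0.09 for ABCC1 to 0.16 ± 0.09 for GCLM, with a median of 0.00. The hcRED libraries lay above both Mock libraries for GCLM and GSS and below both for ABCC1, and with 2 libraries in each group 20% of all tested genes showed the first pattern and 20.3% the second.

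Across the 10 libraries, GPX1, GPX4 and GSTP1 varied together, with Pearson's r of log2 CPM of 0.86 for GPX1 with GSTP1, 0.85 for GPX4 with GSTP1 and 0.82 for GPX1 with GPX4 (n = 10 libraries). These genes share the same libraries and a high GC content (64.2%, 65.2% and 63.7% of the longest transcript for GPX1, GPX4 and GSTP1), against 35.4% for SLC7A11 and 37.3% for GCLM. The part of GC content in this was not tested. SLC7A11 ran with GCLM (r = 0.73), GCLC (0.70) and MGST1 (0.69) and opposite to GSS (-0.87). Among 11078 other genes with a mean of at least 5 CPM, those most like SLC7A11 over the 10 libraries were PDE12 (r = 0.96), NUFIP2 (0.96) and MAP1A (0.96). PDE12 averaged 92.6 CPM in BRSK2, 91.5 in BRSK1, 103 in hcRED and 109 in Mock libraries. Those most like GCLM were SPCS2 (0.96), MESDC2 (0.96) and ARF4 (0.96), with SPCS2 at 73.0 CPM in BRSK2, 80.6 in BRSK1, 93.9 in hcRED and 82.9 in Mock libraries. The points share the libraries and the group differences.

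Of 7 genes of cystine import and cysteine supply that were tested (8 listed), 1 rose and 1 fell with BRSK2, where 4.77% of all tested genes rose and 3.05% fell. With BRSK1 1 of the 7 fell, where 2.66% of all tested genes fell. SLC3A2, the heavy chain that pairs with SLC7A11, had 272, 348 and 337 CPM in BRSK2 libraries and 261, 278 and 288 CPM in BRSK1 libraries, against 254 and 318 CPM in hcRED and 237 and 227 CPM in Mock libraries. BRSK2 replicate 1 lay below hcRED replicate 3, and the groups overlapped. SLC3A2 rose with BRSK2 (0.31 ± 0.08, adjusted p = 0.0314), the opposite direction to its partner, and stood at 0.10 ± 0.08 with BRSK1 (adjusted p = 0.527). The BRSK2 call ended without BRSK2 replicate 2 (adjusted p = 0.153) or 3 (0.156), hcRED replicate 1 (0.108), Mock replicate 2 (0.0625) or Mock replicate 3 (0.111). It also ended under library totals (0.0878), with the GC correction (0.0896), with only the groups compared (0.0525), with all 4 controls as 1 group (0.134) and against hcRED alone (0.16, adjusted p = 0.444, the highest of a range from 3.79e-05).

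MAT2A, which makes S-adenosylmethionine from methionine at the start of the route to cysteine, fell with BRSK2 (-0.24 ± 0.06, adjusted p = 0.0162). That call ended without BRSK2 replicate 3 (0.0775) or hcRED replicate 1 (0.0581) and against hcRED alone (0.0697), with adjusted p from 0.00106 over the alternatives. SLC1A5, a glutamine transporter, fell with BRSK1 (-0.32 ± 0.07, adjusted p = 0.00892), with 260.0, 230 and 223 CPM in BRSK1 libraries against 291 and 286 CPM in hcRED and 311 and 298 CPM in Mock libraries. Its call ended without BRSK1 replicate 2 (0.0504) or 3 (0.0902) and against hcRED alone (0.112), with adjusted p from 4.94e-05.

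Of 10 genes of glutathione breakdown and recycling that were tested (15 listed), 4 rose with BRSK2 and 2 with BRSK1. Both counts include ANPEP, which passed the filter on low counts through the kinase libraries. Without ANPEP, a count chosen after seeing the data, 3 of 9 rose with BRSK2 and 1 of 9 with BRSK1, where 4.77% and 3.77% of all tested genes rose. The median log2 fold change of these 9 was 0.20 with BRSK2 and 0.24 with BRSK1, against 0.00 over all tested genes. CHAC1, a cytosolic enzyme that cleaves glutathione, had 11.3, 13.7 and 14.6 CPM in BRSK2 libraries and 5.92, 8.54 and 9.84 CPM in BRSK1 libraries, against 8.53 and 7.88 CPM in hcRED and 5.70 and 5.69 CPM in Mock libraries. All BRSK2 libraries stood above all others, and 9.09% of tested genes had all BRSK2 libraries above the controls. CHAC1 rose with BRSK2 (0.95 ± 0.15, adjusted p = 0.000341), in all 27 alternatives (adjusted p up to 0.0323). It stood at 0.25 ± 0.15 with BRSK1 (adjusted p = 0.353). It was 0.70 ± 0.16 higher with BRSK2 than with BRSK1 (adjusted p = 0.0473, with a range of 0.00148 to 0.217). That difference lost its call without BRSK2 replicate 2 (0.144) or 3 (0.206), BRSK1 replicate 1 (0.202), 2 (0.123) or 3 (0.0501), or hcRED replicate 1 (0.0654) or 3 (0.064).

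GGT1, the membrane enzyme that opens extracellular glutathione, had 4.77, 4.87 and 5.73 CPM in BRSK2 libraries against 3.06 and 3.72 CPM in hcRED and 3.08 and 3.32 CPM in Mock libraries, and rose with BRSK2 (0.63 ± 0.18, adjusted p = 0.0282). Near-identical copies of GGT1 exist, so its counts are uncertain to that extent. The call ended without BRSK2 replicate 2 (0.0676) or 3 (0.162), hcRED replicate 1 (0.109), or either Mock replicate (0.0651 without 2, 0.0595 without 3). It also ended with hcRED (0.127) or Mock (0.065) as the sole control, with adjusted p from 0.0124. GGACT, which cleaves gamma-glutamylamines and not glutathione itself, rose with both kinases, by 0.83 ± 0.21 in BRSK2 libraries (adjusted p = 0.0182) and by 0.95 ± 0.21 in BRSK1 libraries (adjusted p = 0.00899). It had 3.51, 3.69 and 4.77 CPM in BRSK2 and 4.31, 4.07 and 4.52 CPM in BRSK1 libraries, against 2.17 and 2.50 CPM in hcRED and 1.46 and 2.77 CPM in Mock libraries. The BRSK2 call ended against hcRED alone (0.104) and without BRSK2 replicate 3 (0.141), hcRED replicate 1 (0.0735) or Mock replicate 2 (0.0742), with adjusted p from 0.00266. The BRSK1 call ended without BRSK1 replicate 3 (0.0614) or hcRED replicate 1 (0.0514) and against hcRED alone (0.106), with adjusted p from 0.00056.

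ANPEP, an aminopeptidase that splits the dipeptide left by GGT1, was near the limit of detection, at 0.49, 1.33 and 0.38 CPM in BRSK2 libraries and 0.57, 0.44 and 1.08 CPM in BRSK1 libraries, against 0.09 and 0.24 CPM in hcRED and 0.20 and 0.05 CPM in Mock libraries. It had to be high in the kinase libraries to be tested, and its calls rest on few counts (2.32 ± 0.63 and an adjusted p of 0.0253 with BRSK2, 2.22 ± 0.62 and 0.0339 with BRSK1). They ended by limma-voom (0.0565 and 0.0532), without hcRED replicate 1 (0.0999 and 0.137) or Mock replicate 3 (0.0974 and 0.119), and when set against hcRED alone (0.134 and 0.214) or Mock alone (0.0699 and 0.0723). Leaving out BRSK2 replicate 2 ended the BRSK2 call (0.268), and leaving out BRSK1 replicate 3 (0.234) or hcRED replicate 3 (0.0522) the BRSK1 call.

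**Figure D4:**
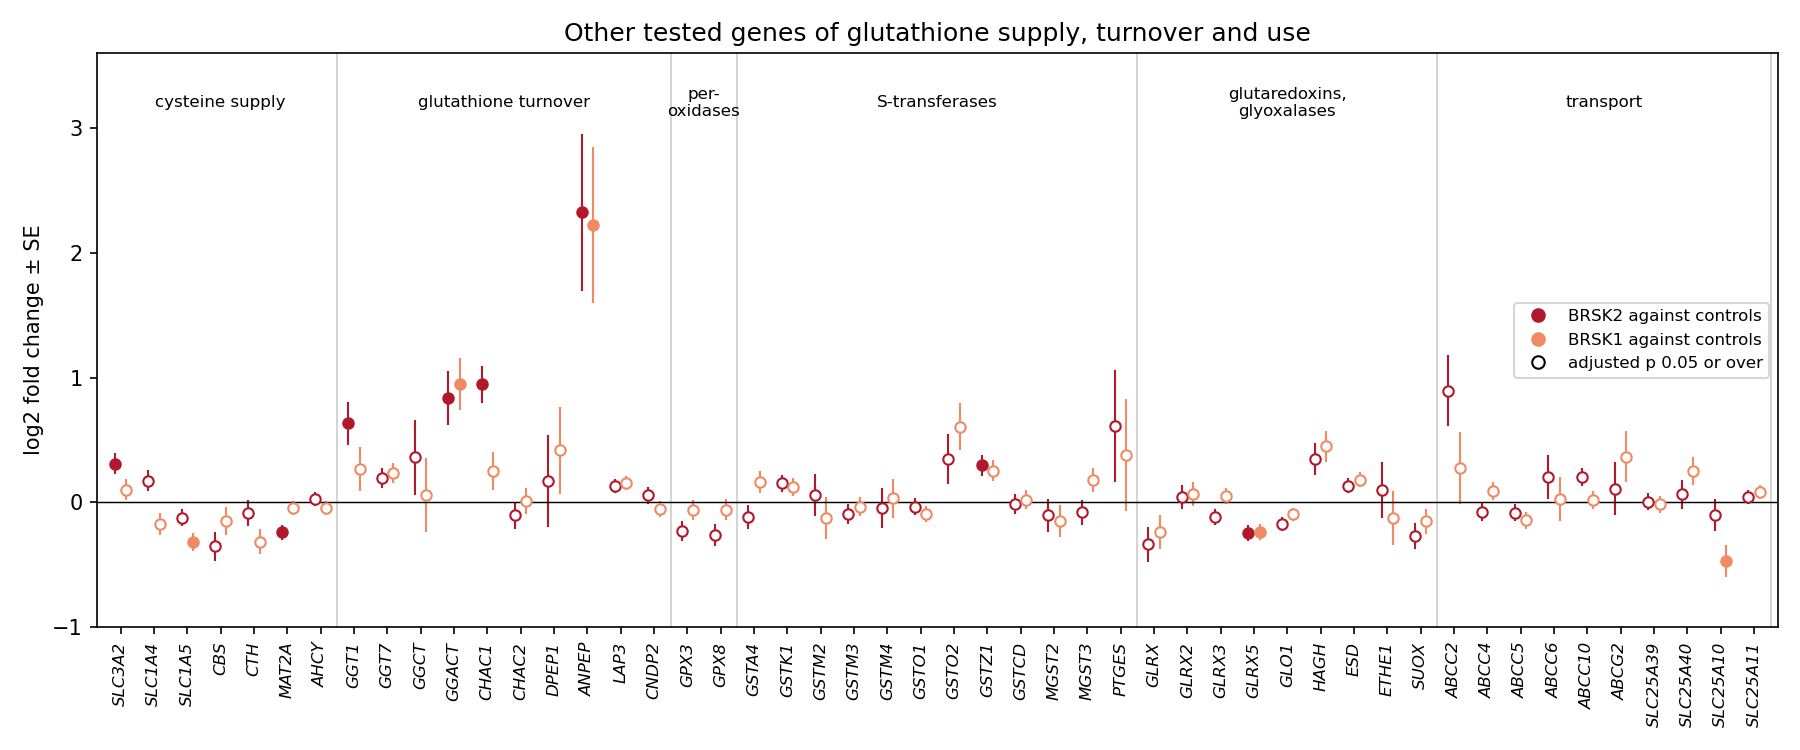
Log2 fold change ± SE of the other tested genes of glutathione supply, turnover and use, for BRSK2 (dark) and BRSK1 (light) against the controls, with filled points at an adjusted p under 0.05. CHAC1 lies at 0.95 with BRSK2 and 0.25 with BRSK1, and GSTZ1 at 0.30 with BRSK2 and 0.25 with BRSK1.

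In the remaining families the counts by edgeR's test are set against all tested genes, of which 4.77% rose and 3.05% fell with BRSK2 by that test. With BRSK1 3.77% rose and 2.66% fell. Both further peroxidases tested (6 listed), GPX3 and GPX8, had 0 calls by edgeR's test, DESeq2 or limma-voom with either kinase, although both had an unadjusted p under 0.05 with BRSK2 (-0.23 ± 0.08, adjusted p = 0.0833, and -0.26 ± 0.09, adjusted p = 0.0655). GPX3 passed in 4 of 27 alternatives with BRSK2 (adjusted p from 0.00719 to 0.638) and GPX8 in 5 (from 0.00522 to 0.291), among them, for GPX8, without BRSK2 replicate 1 (adjusted p = 0.00522). Of 12 other transferases tested (22 listed), 1 rose with BRSK2, GSTZ1, an enzyme of tyrosine breakdown (0.30 ± 0.08, adjusted p = 0.0308). Its call ended without BRSK2 replicate 2 (0.138) or 3 (0.157), hcRED replicate 3 (0.114) or Mock replicate 3 (0.134), under library totals (0.113), and against hcRED alone (0.0897) or Mock alone (0.097), with adjusted p from 0.00771. With BRSK1 GSTZ1 stood at 0.25 ± 0.08 (adjusted p = 0.0656) and passed in 6 alternatives, among them without BRSK2 replicate 1 (0.0354) or Mock replicate 2 (0.0339), with adjusted p from 0.0108 to 0.276.

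Of 9 glutaredoxins and glyoxalases, 1 fell with each kinase, where 3.05% of all tested genes fell with BRSK2 and 2.66% with BRSK1. This was GLRX5, a mitochondrial glutaredoxin of iron-sulfur cluster assembly. It had 117, 108 and 96.3 CPM in BRSK2 and 112, 111 and 101 CPM in BRSK1 libraries. The controls had 128 and 120.4 CPM in hcRED and 134 and 127 CPM in Mock libraries, with no overlap. All BRSK2 libraries lay below the controls for 8.2% of all tested genes, and all BRSK1 libraries for 8.44%. GLRX5 stood at -0.25 ± 0.07 in BRSK2 libraries (adjusted p = 0.0228) and -0.24 ± 0.07 in BRSK1 libraries (adjusted p = 0.031). The BRSK2 call ended without BRSK2 replicate 2 (0.0703) or 3 (0.215), hcRED replicate 1 (0.094) or Mock replicate 2 (0.0538). The BRSK1 call ended without BRSK1 replicate 2 (0.0664) or 3 (0.197), hcRED replicate 1 (0.128), hcRED replicate 3 (0.0509) or Mock replicate 2 (0.0731). Set against hcRED alone, GLRX5 passed with neither (0.137 with BRSK2 and 0.216 with BRSK1). Over the alternatives its adjusted p started at 0.000657 with BRSK2 and 0.000393 with BRSK1.

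Of 10 transporters of glutathione and conjugates that were tested (11 listed), 1 fell with BRSK1, where 2.66% of all tested genes fell. This was SLC25A10, a mitochondrial dicarboxylate carrier (-0.47 ± 0.13, adjusted p = 0.0347, with overlapping libraries). Without BRSK1 replicate 2 (0.114) or 3 (0.181), hcRED replicate 1 (0.155), Mock replicate 2 (0.0889) or Mock replicate 3 (0.064), with all 4 controls as 1 group (0.0549) and against hcRED alone (0.317) it did not pass, and adjusted p started at 0.00018. With BRSK2 the transporter with the smallest p was ABCC2, at 0.90 ± 0.28 (adjusted p = 0.0522).

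Of 12 genes for known regulators of these promoters, 10 did not pass with BRSK2 and 11 with BRSK1. NFE2L2, the gene of NRF2, stood at 0.02 ± 0.08 in BRSK2 libraries (adjusted p = 0.932) and 0.08 ± 0.08 in BRSK1 libraries (adjusted p = 0.59). These values rest on the mean of controls that stood apart, 38.8 and 44.2 CPM in hcRED and 33.2 and 30.4 CPM in Mock libraries. The hcRED level was higher by 0.39 ± 0.10 (edgeR's test, unadjusted p = 0.00104, adjusted p = 0.201). NFE2L2 had 33.1, 39.3 and 37.7 CPM in BRSK2 and 37.3, 37.9 and 40.0 CPM in BRSK1 libraries. KEAP1, the adaptor that marks NRF2 for degradation, stood at 0.01 ± 0.06 (adjusted p = 0.953) and -0.07 ± 0.06 (adjusted p = 0.463), and ATF4, a further activator of SLC7A11, at 0.13 ± 0.08 (adjusted p = 0.38) and -0.01 ± 0.08 (adjusted p = 0.981). ATF3, a stress-induced factor, had the largest log2 fold change of the 12 with each kinase and did not pass. It had 53.8, 90.4 and 91.0 CPM in BRSK2 libraries and 52.9, 76.1 and 73.9 CPM in BRSK1 libraries, against 39.3 and 48.3 CPM in hcRED and 44.6 and 35.7 CPM in Mock libraries. Every kinase library was above every control, a pattern that 9.09% of all tested genes showed for BRSK2 and 9.93% for BRSK1. The log2 fold change of ATF3 was 0.90 ± 0.24 with BRSK2 (unadjusted p = 0.00825, adjusted p = 0.077) and 0.69 ± 0.24 with BRSK1 (unadjusted p = 0.0255, adjusted p = 0.16). With BRSK2 2 of the 12 rose, where 4.77% of all tested genes rose, and 1 with BRSK1, where 3.77% rose. They were the small MAF genes MAFK (0.60 ± 0.08, adjusted p = 4.64e-05) and MAFG (0.30 ± 0.08, adjusted p = 0.0169) with BRSK2, and MAFK with BRSK1 (0.27 ± 0.08, adjusted p = 0.0399). For MAFG the BRSK2 libraries overlapped the hcRED libraries, which stood above Mock by 0.33 ± 0.10 (adjusted p = 0.289). MAFK had 48.1, 59.5 and 53.0 CPM in BRSK2 and 40.1, 45.2 and 42.9 CPM in BRSK1 libraries, against 33.2 and 34.0 CPM in hcRED and 39.5 and 35.3 CPM in Mock libraries. The BRSK2 libraries stood highest and the control libraries lowest, with no overlap, and the share of genes with this whole order was not counted. The BRSK2 call of MAFK held in all 27 alternatives (adjusted p up to 0.00243). Its BRSK1 call ended in 13 of 27 (adjusted p from 0.00159 to 0.231), counting the same fit at the stricter threshold of 0.01. These include the fits without BRSK2 replicate 3 (0.0549), BRSK1 replicate 2 (0.165) or 3 (0.153), hcRED replicate 1 (0.135) or 3 (0.0856), or Mock replicate 3 (0.133). The MAFG call ended without BRSK2 replicate 2 (0.0774) or 3 (0.166), hcRED replicate 1 (0.0867) or Mock replicate 3 (0.0595), under library totals (0.0713), with the GC correction (0.0531), with all 4 controls as 1 group (0.106) and against hcRED alone (0.466), with adjusted p from 0.000693.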

How the data were processed

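RNA from HEK293T cells was sequenced by the submitters, and samples were grouped by the genotype in the labels, with replicate numbers from the titles. The submitters' processing notes name STAR, edgeR, limma and hg38 without versions. The sources used here state neither the counter nor its strand setting nor an annotation release. The authors deposited raw counts, 1 table for each kinase together with the same 4 control libraries (0 genes differed between the tables), which were joined on the gene ID. The deposited tables held 0 unused count columns and 0 lines without a gene. The authors' deposited tables of differential expression, read only for members, give a log2 fold change and p-values, per the file headers, and list only genes with an adjusted p up to 0.0498 (BRSK2) and 0.0496 (BRSK1).

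All 10 libraries entered 1 fit of 4 group means with edgeR 4.0.16 in R 4.3.3 (filterByExpr at its defaults of count 10 and total 15, TMM scaling, glmQLFit and glmQLFTest with robust estimation). Adjustment (Benjamini-Hochberg) ran over all 16936 tested genes with a threshold of 0.05. Standard errors were derived from the F statistic of each contrast and its log2 fold change, and 95% intervals use the test's degrees of freedom. Log2 CPM for correlations had a prior count of 2. The biological coefficient of variation was 8.06%. CPM per kilobase used the deposited gene lengths. The members and lists were chosen with earlier results of these data known. All members were named, then list genes past the threshold in any comparison, or the 2 with the smallest p. NFE2L2, KEAP1, ATF4, ATF3 and ABCC2 were named outside this rule, after their values were seen, and NEFM, CDH2 and VIM as markers.

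Other scalings tried were RLE, upper quartile, library totals alone and TMM computed without the 2 kinase genes. Further alternatives were no filter or 1 CPM in 3 libraries, DESeq2 1.42.0, limma-voom (limma 3.58.1), quasi-likelihood without the robust option, a replicate block, a GC correction in which each library's deviations were smoothed on GC and subtracted (lowess, span 0.3, of the longest GENCODE transcript), both together, each library left out, only the groups compared, an adjusted p under 0.01, and other choices of control. Where a group was left with 1 library, it was assumed to vary like the others. The steps were also run on simulated counts with the same spread for every gene, without overexpressed kinase genes or replicate effects. That run checks the code and not how the steps behave on data such as these. Figures were drawn with matplotlib 3.10.9.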

Additional observations from a re-analysis of the deposited data

Results flagged for a closer look

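CHAC1, the glutathione-cleaving enzyme, differed between the kinases in a test of the difference itself (log2 fold change 0.70 ± 0.16 for BRSK2 against BRSK1, edgeR's quasi-likelihood test, adjusted p = 0.0473). It lost this call in 13 of 23 alternatives (adjusted p from 0.00148 to 0.217), which include limma-voom (0.0667), only the groups compared (0.0869) and the correction for GC content (0.217), besides 7 of the fits that leave out a library. The 13 also include the same fit at the stricter threshold of 0.01, which an adjusted p of 0.0473 could not pass. Every group held 2 or 3 libraries, so single libraries were not tested as outliers.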

How the results depend on the processing

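SLC7A11 kept its direction and its call with each kinase in all 27 alternatives, and GCLM with BRSK2 in 25. Over the 40 values of the 10 genes in the 4 comparisons, 965 of 1017 alternative values kept both direction and side of the threshold, 2 lost a call, 20 gained one, 30 changed sign without passing before or after, and 0 called values changed sign. With BRSK2, where 2 of the 10 genes passed, the count was 6 under library totals alone, 4 with the GC content correction, 5 with the replicate block and GC content correction together, and 1 against Mock alone, and 1 to 3 when a library was left out. Over all tested genes, 517 were lower in the fit reported, 2507 under library totals, 576 with the GC content correction, 1220 with block and correction together and 333 against Mock alone. With BRSK1, where 1 passed, the count in either direction was 2 with the replicate block and 2 with the GC content correction, each adding GSS, which was higher. It was 3 with both together, adding GSS higher and GCLM lower, and 1 to 2 when a library was left out. Over all genes, in either direction, 1999 passed with the block, 1257 with the correction and 2502 with both, against 1089. Between the kinases and between hcRED and Mock the count of the 10 genes was 0 in each alternative run. The cause was not tested.

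Same-numbered libraries of different groups deviated together in 7 of 12 pairs (correlation over 0.1, from -0.15 to 0.38). Of 10 libraries, 7 correlated best with a library of their own number, so the pairing is only a hint from the data. Deviations were taken from group means and mirror each other in the groups of 2 libraries, so the pairs are not independent. The counts that would arise without pairing were not computed. The block raised the count over all genes to 2153 with BRSK2 (1325 without it), 1999 with BRSK1 (1089) and 267 between the kinases (59), and added GSTP1 with BRSK2 (adjusted p = 0.0269) and GSS with BRSK1 (0.0461). With the block and GC correction together GPX1 (0.000877) and GPX4 (0.0161) passed lower with BRSK2, and GCLM lower with BRSK1 (0.0255). Over all alternatives the count of all genes lay between 346 and 3001 with BRSK2, 133 and 2502 with BRSK1, 6 and 267 between the kinases, and 0 and 691 between hcRED and Mock (5 in the fit reported). Low counts limit the genes near or under 1 CPM, such as ANPEP.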
